A study of Mus musculus with 5 samples.

Results

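The genes described here encode 4 families of RNA-binding proteins that set neural splicing patterns: the polypyrimidine tract-binding proteins (Ptbp1, Ptbp2 and Ptbp3), the NOVA proteins (Nova1 and Nova2), the RBFOX proteins (Rbfox1, Rbfox2 and Rbfox3) and the neural serine/arginine repetitive matrix proteins (Srrm3 and Srrm4). They were chosen by name, as the rows of the raw count table that carry these symbols, and all 10 were found among 55573 genes. RNA-seq was made from N2A cells, a mouse neuroblastoma line, transiently transfected with 60 pmol of a siRNA. There were 2 libraries from cells given a commercial negative control siRNA (siCtl, replicates 1 and 3) and 3 from cells given a Upf1 siRNA (siUpf1, replicates 1, 2 and 3). The question was which transcripts depend in level on UPF1, the RNA helicase at the centre of nonsense-mediated mRNA decay (NMD). All libraries came from the same cell line and a single Upf1 siRNA was used, so effects of losing Upf1 and other effects of that siRNA cannot be told apart.

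NMD degrades mRNAs whose stop codon lies well upstream of the last exon junction, and several splicing regulators use it to set their own level by splicing in or out an exon that shifts the reading frame. PTBP1 is abundant in dividing, non-neuronal and progenitor cells, where it represses neural exons and promotes skipping of an exon in Ptbp1 and in Ptbp2 mRNA, leaving a premature stop codon. As neurons differentiate PTBP1 falls and PTBP2 takes its place. NOVA proteins bind YCAY elements and RBFOX proteins bind GCAUG elements around alternative exons of synaptic genes. SRRM4, also called nSR100, and its relative SRRM3 promote inclusion of neural microexons.

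The GENCODE M21 annotation (mouse build GRCm38) gave an NMD transcript to 5 of the 10 genes (50%), namely Ptbp1, Ptbp2, Ptbp3, Srrm3 and Srrm4, compared with 20.8% of 22028 protein-coding genes. No NOVA or RBFOX gene had one. Several of these genes are well known for NMD-coupled exons and were chosen with that in view, so the share describes the choice and is no finding. The exon that is skipped in annotated NMD transcripts of Ptbp1 and Ptbp2 is shown first because its loss is what creates their premature stop. It has 34 nt, so that skipping it shifts the frame, and it is exon 10 of 14 in both Ptbp1-216 and Ptbp2-201. Ptbp3-202 carries an exon of the same length as its exon 11. The sequences run 5′ to 3′ on the transcribed strand, with capitals at the positions where all 3 PTBP genes have the same base.
Ptbp1, chr10:79862014-79862047, plus strand: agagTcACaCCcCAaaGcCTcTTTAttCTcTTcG
Ptbp2, chr3:119724612-119724645, minus strand: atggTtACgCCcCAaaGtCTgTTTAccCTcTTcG
Ptbp3, chr4:59485339-59485372, minus strand: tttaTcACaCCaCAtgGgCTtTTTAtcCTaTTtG
Ptbp1 and Ptbp2 have the same base at 26 of 34 positions (76.5%), Ptbp1 and Ptbp3 at 22 (64.7%), Ptbp2 and Ptbp3 at 21 (61.8%), and all 3 genes at 19 (55.9%).

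Once that exon is skipped, the reading frame runs into a stop within the first 27 nt of the next exon in both genes. This stretch is the same in Ptbp1-201 and Ptbp1-207, and in Ptbp2-206 and Ptbp2-208, and the stop codon is in capitals.
Ptbp1, chr10:79862449-79862475, plus strand: gcgtctacggtgatgtgcagcgggTGA
Ptbp2, chr3:119724160-119724186, minus strand: gtgtttatggagatgtgcagcgcgTGA
From the stop to the last exon junction there were 361 nt in Ptbp1-201, Ptbp2-206 and Ptbp2-208 and 283 nt in Ptbp1-207. Ptbp1-207 and Ptbp2-206 are annotated with only 7 and 5 exons, against 14 in Ptbp1-216 and in Ptbp2-201. Ptbp1-201 also lacks a 78-nt exon, whose length is a multiple of the codon. The third annotated NMD transcript of Ptbp1, Ptbp1-212, has only 6 exons, against 14 in Ptbp1-216. Between its ends it skips no complete exon of Ptbp1-216, and its stop lies 136 nt before its last junction. In Ptbp3 the annotated NMD transcripts differ. Ptbp3-213 includes the 34-nt exon shown and skips a 170-nt exon further upstream, with its stop 920 nt before the last junction. Ptbp3-203 lacks exons near the start of the gene, ends before the 34-nt exon shown and has its stop 158 nt before its last junction.

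In the SRRM genes the annotated NMD transcripts gain a short exon instead. It has 20 nt in Srrm3-201, as exon 12, and 16 nt in Srrm4-205, as exon 2. The stop lies 709 nt and 279 nt before the last junction, respectively. Srrm4-205 is annotated with only 4 exons, against 13 in Srrm4-201, so its exon number and distance hold for that short transcript only.
Srrm3, chr5:135867127-135867146, plus strand: gaggaagtgccactttattg
Srrm4, chr5:116454673-116454688, minus strand: gaggagtccttgcttg
The pair of exons share their first 5 bases. The counts deposited are summed over all transcripts of a gene, so the use of these exons was not measured, and each value below is the total poly(A)-tailed RNA of a gene.

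Libraries held 20402205 to 27717594 assigned reads, with the lowest depth in siUpf1 replicate 2, and 21757 to 23215 genes with a read. Across genes, which are no independent replicates, log2 CPM (counts scaled to library size) correlated at a Pearson's r of 0.998 within groups and of 0.984 to 0.985 between groups. Normalised read counts of Upf1 were 5217 and 5243 in siCtl and 2403, 2496 and 2449 in siUpf1, 46.8% of the siCtl mean (log2 fold change -1.10, SE 0.051, DESeq2 Wald test with Benjamini-Hochberg adjustment over all genes, adjusted p = 7.09e-101). The targeted gene was therefore lower in every library labelled siUpf1. In the same fit 6822 of 15191 genes tested (44.9%) passed an adjusted p of 0.05, so being called was common in this comparison.

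Of the 10 splicing regulators, 7 rose (Ptbp3, Nova1, Nova2, Rbfox1, Rbfox2, Srrm3 and Srrm4), 1 fell (Ptbp1) and 2 were not called (Ptbp2 and Rbfox3) upon Upf1 knockdown. Over all genes tested, 22.0% rose and 22.9% fell. The log2 fold changes of the 10 genes ran from -0.45 to 1.02 with a median of 0.30, beside a median of -0.0024 over all genes tested. In 7 genes every siUpf1 library was above both siCtl libraries and in 2 (Ptbp1 and Rbfox3) every one was below, arrangements found in 34.3% and 35.2% of all genes tested. By edgeR's quasi-likelihood test the calls were again 7 higher and 1 lower for the same genes, against 27.5% and 27.1% of 15368 genes. These are bulk RNA values, in which fewer cells with a transcript and less of it per cell cannot be told apart.

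**Figure D1:**
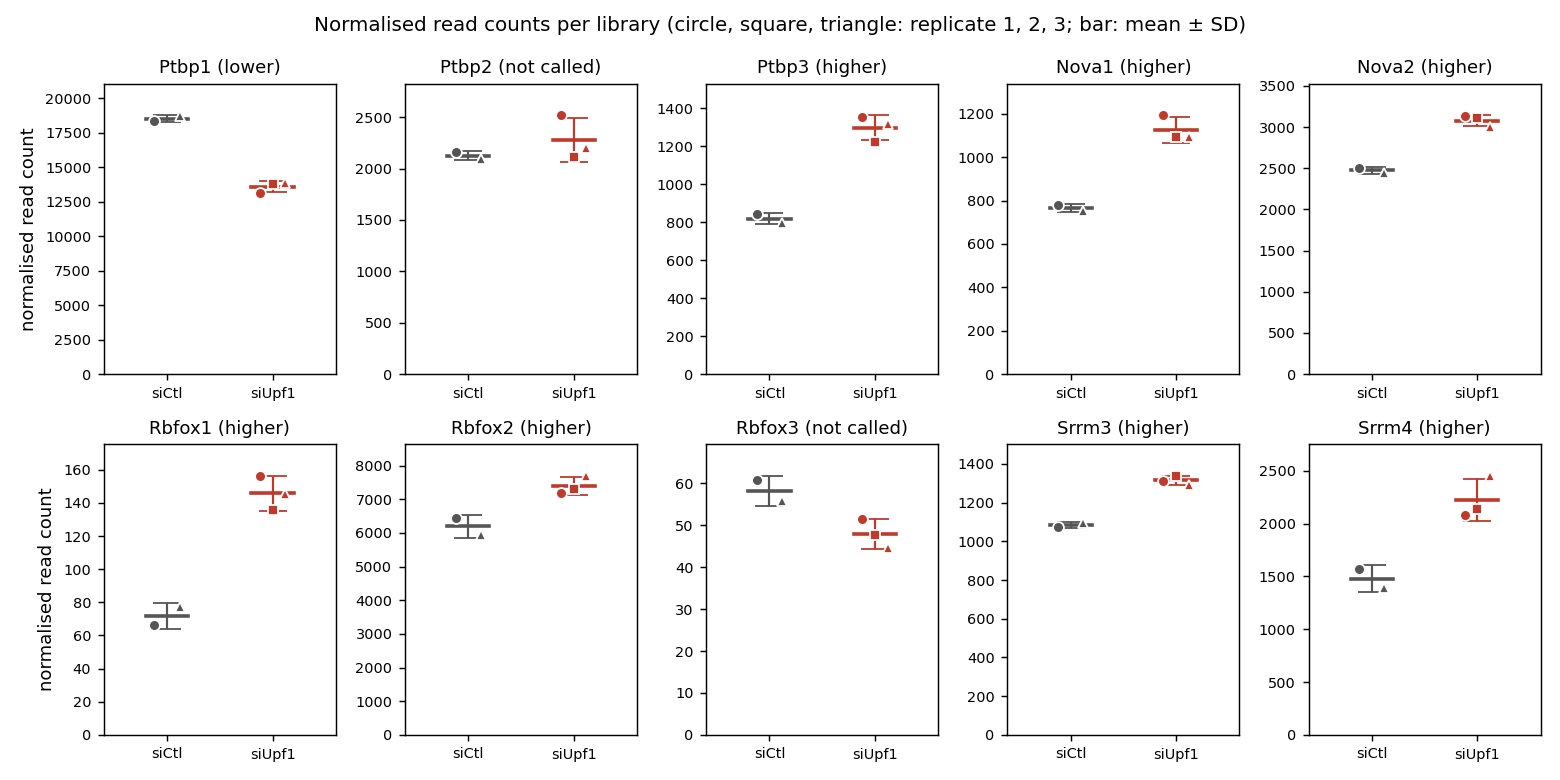
Normalised read counts (y axis, from 0) of the 10 genes in each siCtl (grey) and siUpf1 (red) library, with circles, squares and triangles for replicates 1, 2 and 3 and bars for the mean and SD. Ptbp1 sits lower in siUpf1, the siUpf1 values of Ptbp2 span those of siCtl, and 7 genes sit above siCtl in every siUpf1 library.

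**Figure D2:**
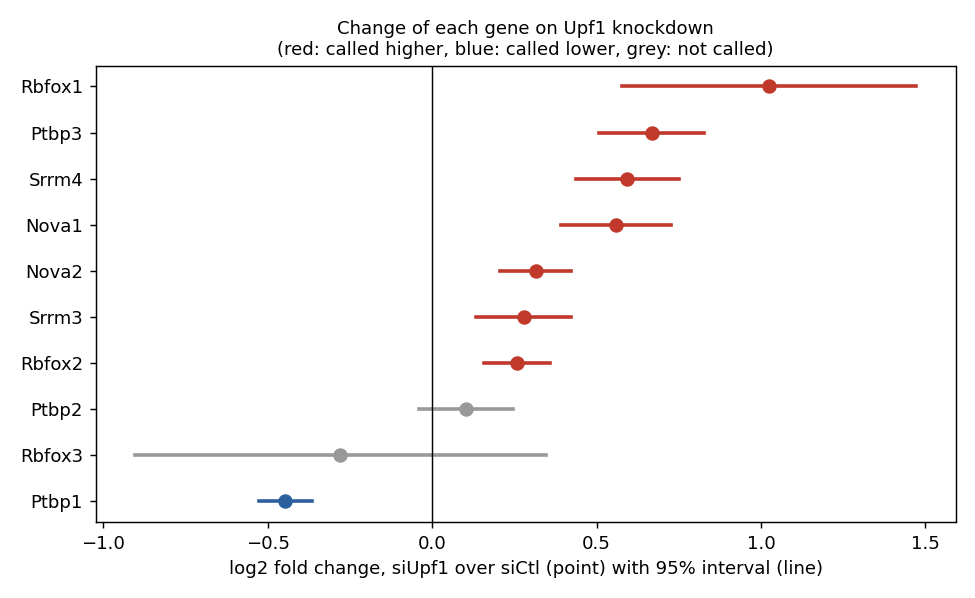
Log2 fold change of siUpf1 over siCtl (x axis) for each gene, with points for the DESeq2 estimate and lines for its 95% interval, in order of size. The intervals of Ptbp2 and Rbfox3 include 0, and that of Rbfox3, the gene with the fewest reads, is the widest of the 10.

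In the PTBP family the most abundant gene fell while the least abundant rose. Ptbp1 (chr10:79854427-79864771, plus strand) had 18338 and 18727 normalised reads in siCtl and 13128, 13789 and 13885 in siUpf1. The groups were far apart relative to their spread, with siUpf1 at 73.4% of siCtl (log2 fold change -0.45, SE 0.041, DESeq2 adjusted p = 1.92e-26). Among all genes tested, 14.0% had a lower fold change than Ptbp1.

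Ptbp3 (chr4:59471868-59549364, minus strand), a paralog known from blood cells, had 841 and 797 normalised reads in siCtl and 1355, 1224 and 1317 in siUpf1. Every siUpf1 library was above every siCtl library, at 159% of the siCtl mean (log2 fold change 0.67, SE 0.082, DESeq2 adjusted p = 5.04e-15). This put Ptbp3 above 90.5% of all genes tested.

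Ptbp2 (chr3:119718742-119784466, minus strand), the neural paralog, had 2156 and 2097 normalised reads in siCtl and 2523, 2116 and 2204 in siUpf1. The groups overlapped, because siUpf1 replicate 2 lay between the siCtl libraries while replicate 1 was the highest of the 5. Its log2 fold change was 0.10 with a 95% interval from -0.04 to 0.25 (SE 0.074, DESeq2 adjusted p = 0.266), and it was 0.02 without siUpf1 replicate 1. Changes of the size seen in Ptbp1 and in Ptbp3 lie outside the interval for Ptbp2.

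The makeup of the PTBP family was then described as the share of each gene in the reads per kilobase of the family within a library. Ptbp1 made up 91.8% and 92.2% in siCtl and 85.9%, 88.1% and 87.6% in siUpf1. Ptbp2 made up 5.57% and 5.33% in siCtl and 8.53%, 6.98% and 7.18% in siUpf1, and Ptbp3 2.67% and 2.49% in siCtl and 5.61%, 4.95% and 5.26% in siUpf1. For each of the 3 genes the groups did not overlap, and the mean share of Ptbp3 went from 2.58% to 5.28%. The mean differences were -4.81 percentage points for Ptbp1, 2.11 for Ptbp2 and 2.70 for Ptbp3, each with p = 0.1 in a two-sided exact permutation test, which is the smallest value that 2 against 3 libraries can give. All 10 family shares and all 6 ratios tested gave this value, and with Benjamini-Hochberg adjustment it stayed at 0.1, so none could pass. The Ptbp2 share was higher although Ptbp2 itself was not called, since the shares of a family sum to the whole and Ptbp1 was lower.

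As ratios per length, Ptbp1 exceeded Ptbp2 by 16.5-fold and 17.3-fold in the siCtl libraries and by 10.1-fold, 12.6-fold and 12.2-fold in the siUpf1 libraries. Ptbp1 exceeded Ptbp3 by 34.4-fold and 37.1-fold in siCtl and by 15.3-fold, 17.8-fold and 16.6-fold in siUpf1. The mean ratio of Ptbp3 to Ptbp2 was 0.472 (SD 0.0085, n = 2) in siCtl and 0.700 (SD 0.038, n = 3) in siUpf1. All of these ratios were separated between the groups (exact permutation p = 0.1, the smallest possible), and they depend on the transcript length assumed: with coding transcript lengths the mean ratio of Ptbp1 to Ptbp2 was 10.4 in siCtl and 7.16 in siUpf1. Reads that match more than 1 paralog are left out or split by such counting, and how many were concerned is not known from a count table.

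**Figure D3:**
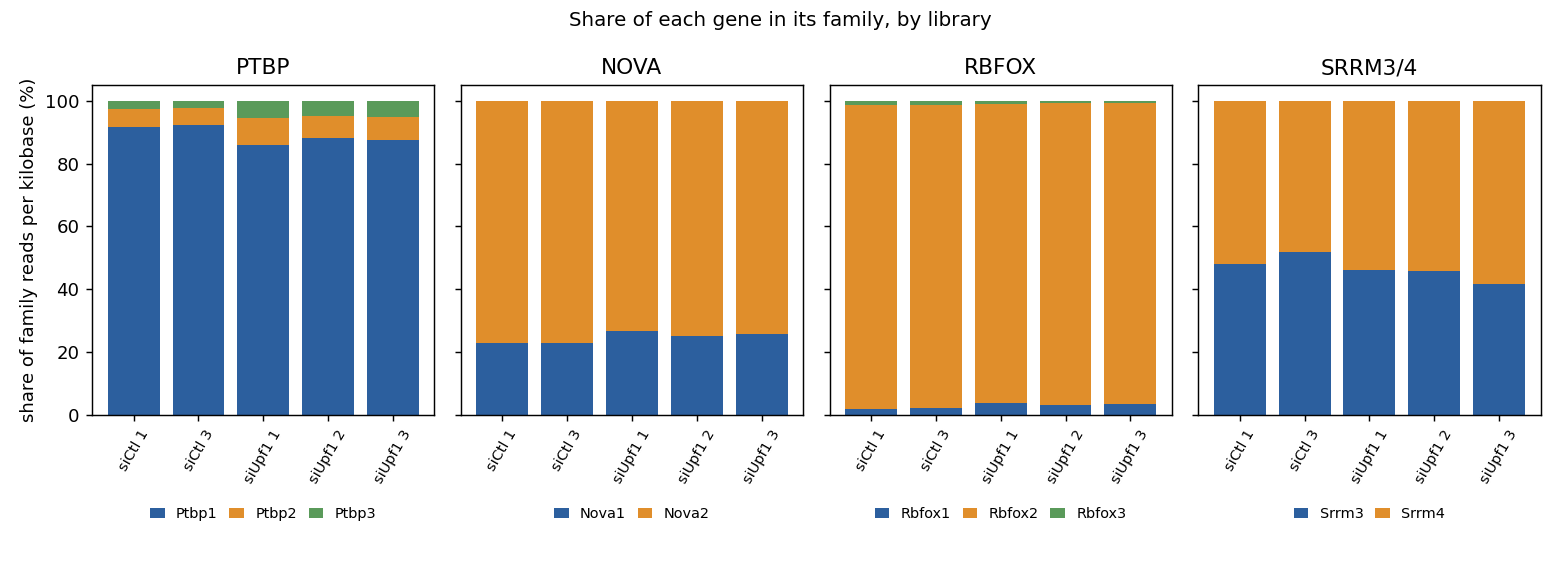
Share of each gene (y axis, %) in the reads per kilobase of its family in each library (x axis), stacked by gene for the PTBP, NOVA, RBFOX and SRRM3/4 families. The Ptbp1 share sits between 85.9% and 88.1% in siUpf1, below 91.8% and 92.2% in siCtl, and Rbfox2 makes up nearly all of its family in every library.

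Both NOVA genes rose, Nova1 by more. Nova1 (chr12:46694517-46818929, minus strand) had 778 and 753 normalised reads in siCtl and 1195, 1093 and 1091 in siUpf1, or 147% of the siCtl mean (log2 fold change 0.56, SE 0.085, DESeq2 adjusted p = 4.17e-10). Nova2 (chr7:18925888-18965319, plus strand) had 2505 and 2444 in siCtl and 3131, 3106 and 2999 in siUpf1, or 124% (log2 fold change 0.31, SE 0.055, DESeq2 adjusted p = 8.21e-08). Neither gene had overlapping groups. The share of Nova1 in the pair was 22.9% and 22.8% in siCtl and 26.8%, 25.2% and 25.8% in siUpf1, a mean difference of 3.09 percentage points (exact permutation p = 0.1, the smallest possible). Nova2, the form prominent in cortex, thus stayed the larger of the pair, at 3.38-fold Nova1 per length in siCtl and 2.86-fold in siUpf1. Exons of Nova1 overlap those of the non-coding Gm33869 on the same strand, and reads there may have been left out or given to either gene.

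In the RBFOX family the fold changes spread the most, with Rbfox3, which was not called, at the lower end. Among called genes only, those of the PTBP family lay further apart. Rbfox2 (chr15:77078990-77307004, minus strand), the broadly expressed member, had 6433 and 5949 normalised reads in siCtl and 7183, 7317 and 7704 in siUpf1. Its groups did not overlap. The siUpf1 mean was 120% of siCtl, the smallest of the 7 increases on the log2 scale (0.26, SE 0.051, DESeq2 adjusted p = 1.81e-06).

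Rbfox1 (chr16:5885355-7411526, plus strand), a neuron and muscle form, was far less abundant. It had 66.0 and 77.4 normalised reads in siCtl and 157, 136 and 145 in siUpf1, from 63 and 82 raw reads against 176, 108 and 163. Every siUpf1 library was well above siCtl, at 203% of its mean, and this was the largest increase among the 10 genes (log2 fold change 1.02, SE 0.229, 95% interval 0.58 to 1.47, DESeq2 adjusted p = 3.3e-05). It was above 96.4% of all genes tested, and its interval was the widest among the called genes of these families.

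Rbfox3 (chr11:118489762-118911597, minus strand), the gene of the neuronal nuclear antigen NeuN, had only 38 to 59 raw reads in a library. Normalised reads were 60.8 and 55.7 in siCtl and 51.6, 47.7 and 44.6 in siUpf1, without overlap. At this depth no difference was detectable (log2 fold change -0.28, SE 0.319, 95% interval -0.90 to 0.35, DESeq2 adjusted p = 0.517), and edgeR gave an adjusted p of 0.25. Within the family the mean share of Rbfox1 was 2.08% in siCtl and 3.49% in siUpf1, and that of Rbfox2 96.6% and 95.6%.

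Both microexon regulators rose, Srrm4 more than Srrm3. Srrm4 (chr5:116439275-116591817, minus strand) had 1567 and 1386 normalised reads in siCtl and 2085, 2137 and 2456 in siUpf1, or 151% of siCtl (log2 fold change 0.59, SE 0.080, DESeq2 adjusted p = 1.68e-12). Srrm3 (chr5:135806890-135874772, plus strand) had 1072 and 1095 in siCtl and 1314, 1340 and 1291 in siUpf1, or 121% (log2 fold change 0.28, SE 0.074, DESeq2 adjusted p = 0.000607). In both genes every siUpf1 library was above siCtl, with the 3 Srrm3 values close together and siUpf1 replicate 3 the highest for Srrm4. The share of Srrm4 in the pair was 51.9% and 48.3% in siCtl and 53.9%, 54.1% and 58.4% in siUpf1 (exact permutation p = 0.1, the smallest possible). Srrm3 was the only one of the 10 genes to lose its call under any alternative, when the replicate number was added to the fit as a block (log2 fold change 0.26, DESeq2 adjusted p = 0.111).

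Levels were compared between genes as TPM, a level scaled by exon length and by the library total. In siCtl the order of mean levels was Ptbp1 at 433 TPM (SD 23.4, n = 2), Rbfox2 at 84.2, Nova2 at 32.7, Ptbp2 at 25.7, Srrm4 at 18.8, Srrm3 at 18.7, Ptbp3 at 12.1, Nova1 at 9.69, Rbfox1 at 1.81 and Rbfox3 at 1.11. Srrm4 and Srrm3 were the only neighbours in this order whose libraries overlapped, and each was the higher of the pair in 1 library. In siUpf1 Ptbp1 stood at 314 TPM (SD 24.2, n = 3), Rbfox2 at 99.5, Nova2 at 40.3, Srrm4 at 28.1, Ptbp2 at 27.4, Srrm3 at 22.5, Ptbp3 at 19.1, Nova1 at 14.1, Rbfox1 at 3.64 and Rbfox3 at 0.904. Srrm4 had moved above Ptbp2 in the order of means, but it was above Ptbp2 in siUpf1 replicates 2 and 3 and below it in replicate 1. From Srrm4 down to Nova1 the range of each gene over the libraries overlapped that of its next neighbour, whereas within every siUpf1 library Ptbp2 was above Srrm3, Srrm3 above Ptbp3 and Ptbp3 above Nova1. Among the siUpf1 libraries the TPM of each of the 10 genes was lowest in replicate 2, and that library also had the highest share of reads on Gm42418, at 7.32% against 4.27% to 5.91% in the others. Its part in the TPM spread was not tested, and the normalised read counts above do not use the total.

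Other splicing regulators of neural RNA moved in both directions. Of 19 such genes, looked up by symbol, 18 were found and 14 were tested. Qki was not found under that symbol, so its level is not known. Of the 14, 5 rose, 4 fell and 5 were not called, beside 22.0% higher and 22.9% lower over all genes tested. The median log2 fold change of the 14 was 0.0099. The rising genes included the neuronal ELAV (Hu) proteins, which bind AU-rich elements and also act on splicing. Elavl2 rose from 815 ± 67.0 (SD, n = 2) to 1831 ± 71.9 (n = 3) normalised reads (log2 fold change 1.17, DESeq2 adjusted p = 4.75e-49) and Elavl4 from 1759 ± 89.6 to 3848 ± 310.6 (1.13, DESeq2 adjusted p = 1.04e-57). Elavl3 rose by less (0.38), whereas the ubiquitous Elavl1 fell slightly (-0.14, DESeq2 adjusted p = 0.00914), a call that was lost without siCtl replicate 1 (adjusted p = 0.28). Celf4 (0.69) and Mbnl1 (0.36) also rose, while Srrm2 (-0.42), Celf1 (-0.41) and Srrm1 (-0.26) fell. Srrm1 and Srrm2, the broadly expressed relatives of the microexon regulators, were thus lower where Srrm3 and Srrm4 were higher.

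Of 8 partners and upstream genes of these families, 5 were tested, and 1 rose, 1 fell and 3 were not called (median log2 fold change 0.10), a share of calls near the 44.9% of all genes tested. Rest, which represses neural genes including Srrm4 outside the nervous system, fell from 1772 ± 106.6 to 1459 ± 90.0 normalised reads (log2 fold change -0.28, DESeq2 adjusted p = 0.000678), and was not called without siCtl replicate 1 (adjusted p = 0.0907). Rnps1, which works with SRRM4 on microexons, rose from 1212 ± 4.61 to 1517 ± 65.0 (0.32, DESeq2 adjusted p = 3.86e-05). Both calls were lost with the replicate number as a block, at a DESeq2 adjusted p of 0.142 for Rest and 0.0616 for Rnps1. Srsf11 (-0.098), another microexon factor, Matr3 (0.10), a PTBP1-binding protein, and Mir124a-1hg (0.18), a host transcript of the microRNA miR-124 that represses Ptbp1, were not called. Raver1, a co-repressor of PTBP1, was listed at 0 reads in every library and shares exons with Gm38431 on the same strand, so its level is not known.

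Genes with exons or introns known to be controlled by PTBP1 or PTBP2 were measured only as gene totals, which do not show exon use or intron retention. Of the 10 such genes reported here, all tested, 3 rose, 2 fell and 5 were not called, beside 22.0% and 22.9% of all genes tested, and 1 further gene of that list is not reported. The median log2 fold change was 0.038, and without siCtl replicate 1 or siCtl replicate 3 only Kif5a rose. The rising genes were Kif5a (0.28), a neuronal kinesin, Gabbr1 (0.20), a GABA-B receptor subunit, and Vamp2 (0.19), a synaptic vesicle fusion protein. The calls of Gabbr1 and Vamp2 were each lost with any 1 of several libraries left out, at DESeq2 adjusted p up to 0.239 for Gabbr1 and 0.221 for Vamp2, in both cases without siCtl replicate 3. Actn1, an actin crosslinker, fell from 5860 ± 177.0 to 3628 ± 117.2 (-0.69, DESeq2 adjusted p = 2.92e-41) and Pkm, the glycolytic enzyme whose exon choice PTBP1 sets, from 34905 ± 834 to 27926 ± 376 (-0.32, DESeq2 adjusted p = 1.59e-17). Dlg4, whose PSD-95 transcript PTBP proteins direct to NMD, had a log2 fold change of 0.087 and was not called.

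**Figure D4:**
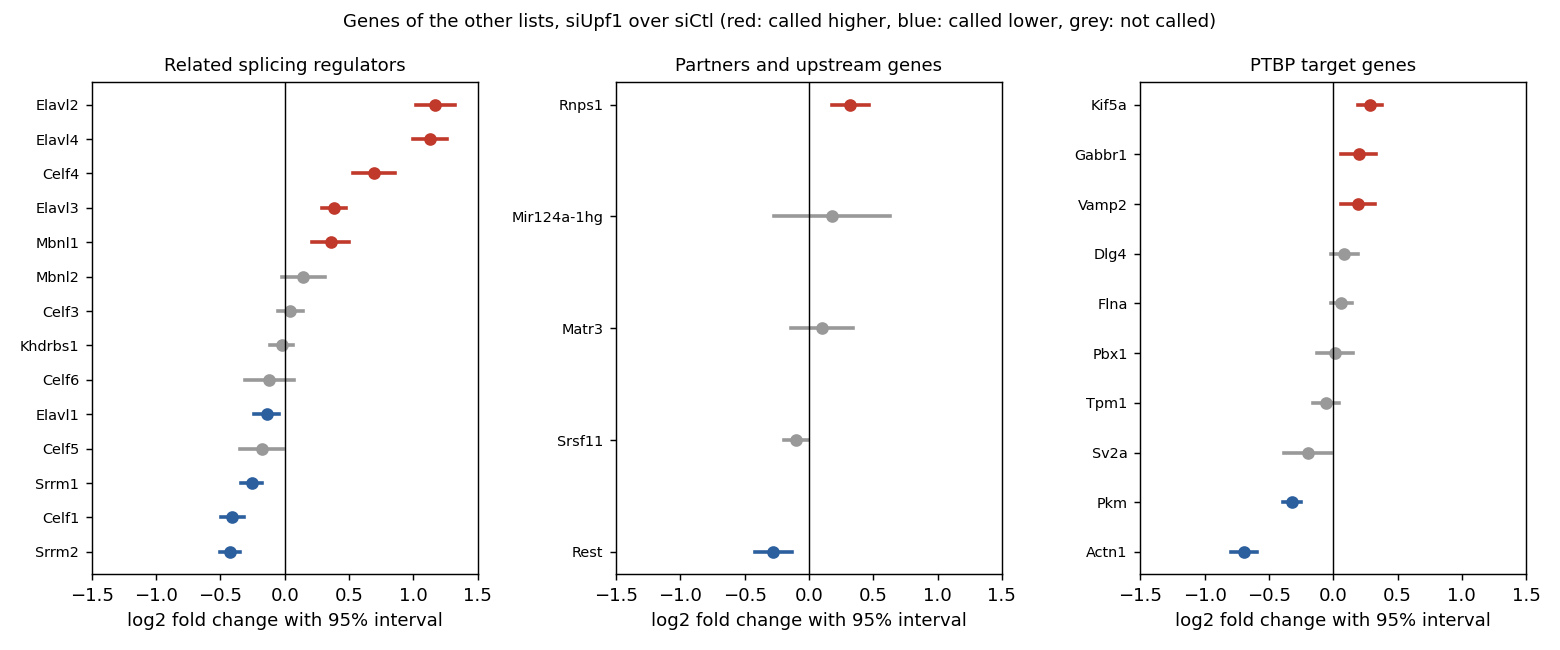
Log2 fold change (x axis, siUpf1 over siCtl) with 95% intervals for the tested genes of the related splicing regulators, the partners and upstream genes and the PTBP target genes, coloured by call. Elavl2 and Elavl4 stand furthest to the right at 1.17 and 1.13, and Actn1 furthest to the left at -0.69.

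The label of a neuroblastoma line was checked with marker genes. The 14 markers of sympathetic neuroblasts and neurons reported here had at least 1 TPM in every library, and 1 further gene of that list is not reported. Of the 14, 9 rose and 2 fell upon Upf1 knockdown, beside 22.0% higher and 22.9% lower over all genes tested. The summed level of the list was 2047 to 2178 TPM in siCtl and 2255 to 2644 TPM in siUpf1. The 7 splicing regulators that rose did so in the same libraries as this list, and its part in their change was not tested. Markers of glia summed to 6.80 to 7.53 TPM in siCtl and 7.03 to 8.32 TPM in siUpf1, those of fibroblasts to 3.80 to 3.82 and 2.69 to 3.63 TPM, and those of blood and vessel cells to 3.88 to 4.27 and 2.29 to 2.74 TPM. The defining markers Mog, Lum and Cx3cr1 had 0 reads in every library.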

How the data were processed

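Raw counts of reads per gene were deposited. According to the methods and processing notes, the authors made strand-specific libraries of poly(A) RNA, demultiplexed reads with bcl2fastq, trimmed them with fastp, aligned them to GRCm38.p6 with STAR (2.7.0f in the processing notes, while the methods also allow a later version) and counted reads over exons with featureCounts (Subread 1.6.4). The counts were neither normalised nor pooled, and PCR duplicates cannot be recognised in them, so intervals cover counting and replicate spread only. The labels do not say that replicates were separate cultures, although the study describes blots of these knockdowns as independent experiments. If they were not, p-values measure only the spread between these libraries.

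The counts were tested with DESeq2 1.42.0 (R 4.3.3), the tool of the study's methods, by a Wald test of group over all 5 libraries and with its default size factors, with Benjamini-Hochberg adjustment over all genes and calls at an adjusted p under 0.05. edgeR 4.0.16 (quasi-likelihood) was an alternative. Other alternatives were TMM or total-count size factors, shrinkage of fold changes, no independent filtering, at least 10 counts in 2 or more libraries, omission of Gm42418 and mitochondrial genes, omission of single libraries, and a block for the replicate number. TPM, shares and ratios used exon lengths from GENCODE M21, found for 99.8% of genes, and sequences and transcripts came from the same release and build (GRCm38).

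The 10 genes and all lists were chosen with earlier results of these data known. The rule for naming genes took Upf1, the 10 genes, the called ELAV genes, up to 3 called genes in each direction of each other list, and allowed any gene whose call changed under an alternative. Mbnl1, Raver1, Matr3, Mir124a-1hg, Dlg4, the marker genes and Gm42418 are outside this rule and were named after their values were seen. Qki is outside it too and had no value. In the PTBP target and neural marker lists, 1 gene each is not reported here and was left out after the values were seen. The labels do not say whether replicate numbers pair the libraries, and number 2 has no siCtl library here. Deviations from group means correlated at -0.0861 (number 1) and -0.0748 (number 3) over 11898 genes. The deviations of the 2 siCtl libraries mirror each other, so these are not separate checks and cannot decide pairing. In counts simulated for 28121 genes with this design, DESeq2 recovered 67% of genes changed by 0.5 on the log2 scale and 92% of those changed by 1. Only 100 genes were changed at each size, drawn from genes above a set mean count, whereas 6822 of 15191 genes were called here. These shares therefore need not hold for the real libraries or for genes with few reads.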

Additional observations from a re-analysis of the deposited data

How the results depend on the processing

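Shrinkage of fold changes reused the adjusted p of the main fit, so that value could not change a call, here or in the other lists. Dropping independent filtering reused the main fold changes, so that value could not change direction. Of 143 values for Upf1 and the 10 splicing regulators under the alternatives, these included, 142 kept their direction and their side of the threshold. The exception was Srrm3 with the replicate number as a block (log2 fold change 0.26, DESeq2 adjusted p = 0.111, over a range of 0.000241 to 0.111 among its alternatives), where 6 genes rose instead of 7. Whether the replicate numbers pair the libraries is not known. Number 2 has no siCtl library, so under the block siUpf1 replicate 2 had a term of its own. That library then added nothing to the estimated difference between groups. For Srrm3 the log2 fold change was 0.26 with the block and 0.26 with siUpf1 replicate 2 left out. The block also left fewer residual degrees of freedom: over all genes it gave 1957 higher and 1962 lower calls against 3341 and 3481. The median log2 fold change of the 10 genes was 0.32 with total-count size factors and 0.29 to 0.32 with a library left out, against 0.30. With a siCtl library left out, the remaining one is assumed to vary like the siUpf1 libraries.

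Of 377 values for 29 genes of the other lists, 357 kept their call, 15 lost it, 5 gained it and 0 reversed. The partner genes gave 0 higher and 0 lower calls with the block, and 0 to 2 lower with a library left out. PTBP targets gave 1 higher call with the block, and 1 to 3 with a library left out, and their median log2 fold change of 0.038 was 0.060 with total-count size factors and 0.00022 to 0.070 with a library left out. Rest lost its call with the block (DESeq2 adjusted p = 0.142) and without siCtl replicate 1 (0.0907). Elavl1 lost it with total-count size factors (0.0735), the block (0.301) and without siCtl replicate 1 (0.28). Rnps1 lost it with the block (0.0616). Gabbr1 lost its call without siCtl replicate 1 or 3 or siUpf1 replicate 3 and with the block, and Vamp2 without siCtl replicate 1 or 3 or siUpf1 replicate 1 or 2 and with the block (0.282). Calls were gained by Celf5 (edgeR, adjusted p = 0.0193), Sv2a (edgeR, 0.0143), Mbnl2 (without siUpf1 replicate 2, 0.0144), Srsf11 and Flna (without siUpf1 replicate 1, 0.0244 and 0.0433). The cause was not tested.

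Family shares moved with the length used, without changing direction. With no length scaling the differences in percentage points were -7.12 for Ptbp1, 3.38 for Ptbp2, 3.74 for Ptbp3, 0.783 for Rbfox1, -0.495 for Rbfox2 and -0.288 for Rbfox3. With coding transcript lengths they were 3.26 for Ptbp2, 1.90 for Ptbp3 and -0.625 for Rbfox3. The median of all genes lay between -0.012 and 0.019 under every size factor and setting. Depth limited Rbfox3 the most, at 38 to 59 reads.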

Other observations

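Properties of the transcripts that were not used to choose the genes were tabulated as descriptions. Of the 9 splicing regulators with an annotated 3′ untranslated region (3′ UTR) of at least 50 nt in the representative transcript, 4 had a longer one than nearly all coding genes: Nova2 (6701 nt, longer than 98.7% of coding genes), Nova1 (5452 nt, 97.5%), Srrm4 (5292 nt, 97.2%) and Rbfox2 (5172 nt, 97%). The other 5 had 1155 nt in Ptbp1, 1439 nt in Rbfox3, 1464 nt in Srrm3, 1586 nt in Ptbp2 and 1624 nt in Ptbp3, against a median of 882 nt over coding genes. All of the genes with a very long 3′ UTR rose. Of those with shorter ones, Ptbp3 and Srrm3 rose, Ptbp1 fell, and Ptbp2 and Rbfox3 were not called. Rbfox1, with no 3′ UTR of that minimum length in its representative transcript, had the largest increase of these regulators (log2 fold change 1.02). A rise was called in 22.0% of all genes tested, and the share among genes with a long 3′ UTR was not computed. A link between 3′ UTR length and the change in level was not tested.

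A 7-base match to the seed of the antisense strand of the Upf1 siRNA, GATAATT, was present in 7.98% of 20263 3′ UTRs and in 1 of the 9, Srrm4. A match to the seed of the other strand, AACCTTG, was present in 9.41% and in 4 of the 9, with 2 matches in Nova2 and 1 each in Rbfox2, Rbfox3 and Srrm4. These shares are not matched on length, and 3 of the 4 genes have a 3′ UTR far longer than the median. Only the transcribed strand of the 3′ UTR was searched, and a match is not evidence of binding.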
